A study of Rattus norvegicus with 47 samples.

Results

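The comparison described here sets 6 of the 47 kidney cortex libraries of the series against each other: the 3 libraries labelled lithium with replicate numbers 1 to 3 and the 3 labelled lithium-amiloride with the same numbers, all after 6 months. They were chosen by their labels in the 6-month count table, 3 per label. All animals were male Wistar rats. By the labels, the lithium rats ate chow with 60 mM lithium carbonate, the lithium-amiloride rats also drank 0.2 mM amiloride, and the control rats ate plain chow. By the methods of the study, lithium ran for 6 months and amiloride was added for the last 5 of them. The 4 libraries labelled control entered the same model fit and are given beside the other groups. Ages, and whether each library came from 1 animal, are not stated in the labels. The p-values therefore measure the spread between these libraries, which may be partly technical.

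The names of the groups are in conflict, and both are given. By the labels the comparison is lithium against lithium-amiloride. The deposited tables of the study's own tests treat the libraries labelled lithium as lithium-amiloride, those labelled lithium-amiloride as control and those labelled control as lithium. Of the 2402 tested genes that the table for lithium-amiloride against control lists, 88.7% had an unadjusted p under 0.01 (edgeR) between the libraries labelled lithium and those labelled lithium-amiloride, 58.6% between those labelled lithium-amiloride and those labelled control, and 23.2% between those labelled lithium and those labelled control. By the tables, then, the comparison is lithium-amiloride against control. Which naming is right cannot be told from the counts alone, so groups are named by label throughout. The libraries numbered 4 of both labels were left out here. The study also left samples out, since they did not cluster with their group. Means recomputed from the counts without these 2 libraries differed from the mean column of the deposited 6-month tables by a median relative difference of 6.28e-11 over 3910 genes. With all 12 libraries that difference was 0.0548, and with 4 other choices it was between 0.00999 and 0.0666.

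Lithium enters the principal cells of the collecting duct through the epithelial sodium channel, which amiloride blocks. In these cells it lowers the response to vasopressin and the water channel Aqp2, and the kidney loses its power to concentrate urine (nephrogenic diabetes insipidus). Long treatment is known for widened distal tubules and collecting ducts, a changed balance of principal and acid-secreting intercalated cells, and interstitial fibrosis. Cortex also holds proximal tubule, thick ascending limb, distal convoluted tubule, glomeruli, vessels and interstitium, so each value below is a mean over all of these. In such bulk tissue, fewer cells of a type and less RNA per cell cannot be told apart.

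Total counts were 22579658 to 25415685 in the 4 libraries labelled lithium, 21245870 to 23209738 in the 4 labelled lithium-amiloride and 21820133 to 23642740 in the 4 labelled control. Mitochondrially encoded genes took 18.6 to 25.1%, 21.7 to 29.9% and 16.5 to 24.3% of the counts, in the same order. The highest share was that of lithium-amiloride 1, and lithium-amiloride 4, which was left out, had the fewest genes with 10 or more counts (13270, against 13884 to 14420 in the other 11). The labelled tissue was checked against nephron markers. *Lrp2*, the endocytic receptor of the proximal tubule, stood at 3655, 4069 and 4863 counts per 1000000 (CPM, TMM-scaled) in the libraries labelled lithium and at 4212, 4605 and 3898 CPM in those labelled lithium-amiloride. *Umod*, the urine protein of the thick ascending limb, stood at 1424, 897 and 1077 CPM against 919, 1312 and 1499 CPM. The podocyte gene *Nphs1* stood at 145, 112 and 118 CPM against 150, 126 and 164 CPM. For these 3 genes the groups overlapped. They mark cell types that cortex holds, and the check does not measure any share of medulla.

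Of 14532 genes tested, 838 had higher and 292 had lower values under the label lithium than under lithium-amiloride (edgeR quasi-likelihood test, Benjamini-Hochberg adjusted p under 0.05, a change of 0.5 or more on the log2 scale). That is 5.77% higher and 2.01% lower. Differences of at least 2 on the log2 scale were found in 143 of the higher genes and 15 of the lower ones. The values of the 3 libraries of one label did not overlap those of the other in 35.2% of all genes tested, and in 834 of the higher and 286 of the lower genes. Gene symbols were known for 8900 of the tested genes, since they come from the study's tables of genes with an adjusted p under 0.05 in at least 1 comparison of these data. Among those, 8.98% were higher and 3.02% lower, and the gene lists below, which hold only genes with a symbol, are read against these shares. The number of lower genes rested on single libraries. It was 118 without lithium 3, 165 without lithium 2 and 189 without lithium-amiloride 1, while the number of higher genes lay between 626 and 910 with each of the 10 libraries left out in turn. With lithium-amiloride 4 put back, 506 genes were higher and 119 lower.

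The genes with the largest differences were nearly silent in one group. *Fgfbp1*, a secreted carrier of fibroblast growth factors, had 127 counts over the 3 libraries labelled lithium and 0 over the 3 labelled lithium-amiloride, at least 35.9-fold higher when the zero is set to 3 counts over the group. *Vwa5b1* had 190 counts against 1, a ratio of 161 with an exact 95% counting interval of 28.5 to 6389. *Cps1*, the urea cycle enzyme that makes carbamoyl phosphate, had 169 counts against 2, a ratio of 71.6 (19.5 to 596). *Mab21l4*, *Zfp474* and *Clec2dl1* had 96, 76 and 77 counts against 1, 1 and 2, with ratios of 81.3 (14.2 to 3245), 64.4 (11.2 to 2575) and 32.6 (8.73 to 274). These intervals cover counting error only. In the libraries labelled control, all 6 of these genes were at 2 CPM or less, and their adjusted p between the labels lithium and lithium-amiloride lay between 1.82e-05 and 0.00346.

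*Ccn3* (ENSRNOG00000008697), a secreted matrix protein of the Ccn family, stood at 62.1, 80.1 and 80.4 CPM in the libraries labelled lithium, against 1.65, 0.683 and 1.84 CPM in those labelled lithium-amiloride and 13.7 to 32.7 CPM in those labelled control. The labels did not overlap, and the difference was 53.3-fold in means. The neuronal tubulin *Tubb4a*, with 443 counts over the libraries labelled lithium against 8, stood at 4.76, 6.95 and 5.81 CPM against 0.0971, 0.0911 and 0.189 CPM (log2 fold change 5.49, standard error 0.33, adjusted p = 6.67e-06). The sterol transporter *Abcg5*, with 194 counts against 4, stood at 1.60, 3.36 and 2.65 CPM against 0.0486, 0.0456 and 0.0946 CPM, with a log2 fold change of 5.24.

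Among the genes lower in the libraries labelled lithium, *Kcne1*, an accessory subunit of a potassium channel, stood at 0.52, 0.448 and 0.316 CPM, against 6.02, 9.25 and 6.05 CPM in those labelled lithium-amiloride and 0 to 0.188 CPM in those labelled control. Its log2 fold change was -4.03 (standard error 0.37, adjusted p = 6.72e-05). The defensin *Defb9* had 2 counts over the libraries labelled lithium against 72 over those labelled lithium-amiloride, 42.5-fold lower with a counting interval of 11.3 to 358. *Zfp36l2*, an mRNA-binding protein, stood at 0.649, 0.672 and 0.474 CPM against 6.80, 2.83 and 11.5 CPM. Its call was lost without lithium 2 and without lithium 3. The serine protease *Tmprss4* stood at 0.173, 0.224 and 0.237 CPM against 1.51, 2.597 and 1.32 CPM. *Nptx2*, *Acot5*, *Ptchd3* and *Spns3* fell by 1.74, 2.11, 1.69 and 1.69 on the log2 scale. The call of *Acot5* was lost without lithium 2, and that of *Spns3* without lithium 2, lithium 3 or lithium-amiloride 1.

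**Figure D1:**
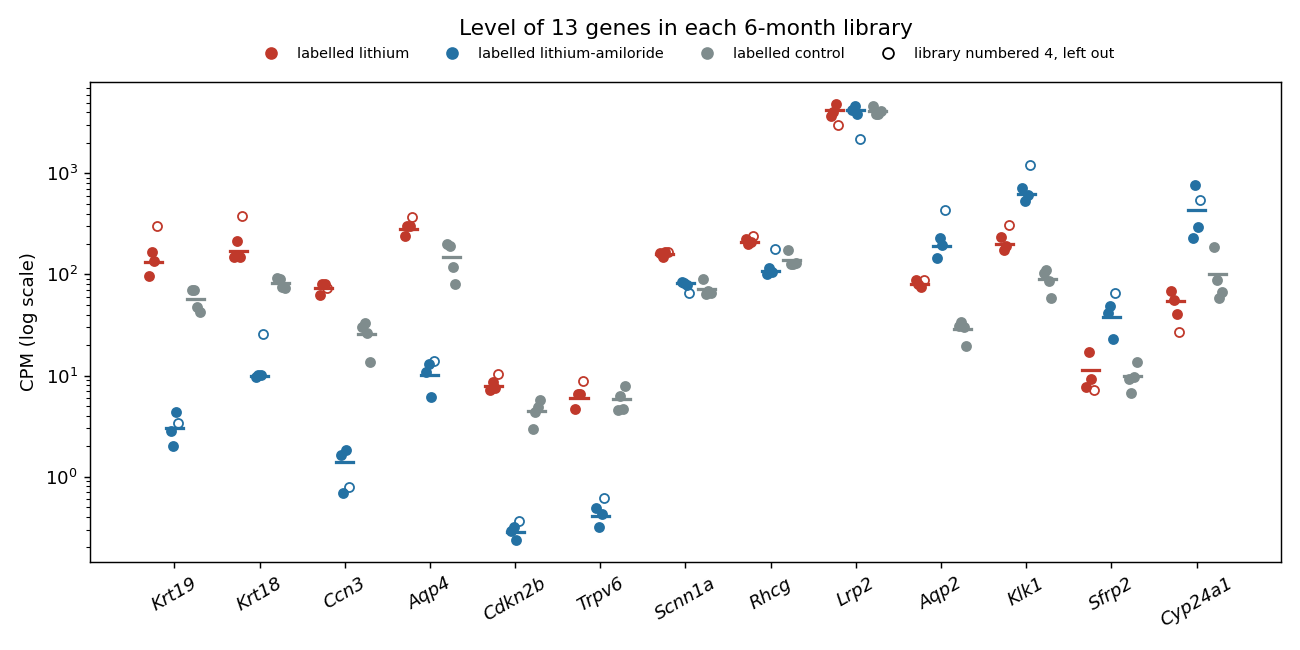
Level of 13 genes in each of the 12 six-month libraries, in CPM on a log axis. Filled points are libraries in the fit, open points the 2 libraries numbered 4 that were left out, and bars the mean of the filled points; *Krt18* sits at 150 to 212 CPM in the libraries labelled lithium and at 9.62 to 10.03 CPM in those labelled lithium-amiloride, while for *Lrp2* the labels overlap.

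Keratins, the intermediate filament proteins of epithelia, were higher in the libraries labelled lithium in each of the 6 members tested (of 9 listed, 6 have an ID), with a median log2 fold change of 2.29, against -0.02 over all tested genes with a symbol. *Krt19* (ENSRNOG00000014233), found in ducts and simple epithelia, stood at 96.2, 168 and 135 CPM, against 2.82, 2.005 and 4.35 CPM in those labelled lithium-amiloride and 42.6 to 70.6 CPM in those labelled control. Its log2 fold change was 5.46 (standard error 0.33, adjusted p = 6.93e-06). *Krt8* and *Krt18* encode the 2 partners of the filament of simple epithelia, and they changed by unequal amounts. *Krt8* (ENSRNOG00000009779) stood at 369, 461 and 390 CPM against 125, 158 and 147 CPM, 1.52 higher on the log2 scale (standard error 0.10). *Krt18* (ENSRNOG00000047393) stood at 150, 212 and 150 CPM against 9.62, 10.02 and 10.03 CPM. *Krt7*, *Krt80* and *Krt23* were 1.34, 1.85 and 2.73 higher on the log2 scale. The 6 keratins summed to 1039 to 1313 CPM in the libraries labelled lithium and 317 to 323 CPM in those labelled lithium-amiloride. All 6 were called with each library left out in turn and with both libraries numbered 4 put back, and 5 with lithium-amiloride 4 alone put back.

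The sequences before the *Krt8* and *Krt18* starts are shown because these 2 partner genes are neighbours on rat chromosome 7, in opposite orientation, and rose together by different amounts. They are the 250 bases before each gene's start in the RefSeq table (build GRCr8, which is not the build of the counts), read 5′ to 3′ on the gene's own strand: *Krt8* at chr7:135010340-135010589 on the minus strand and *Krt18* at chr7:135035918-135036167 on the plus strand, with 25829 bases between the 2 starts. Of 7 keratins looked up by symbol, 4 were in the table. Capitals mark matches, on either strand, to TATAAA (bound by TBP) or GGGCGG (bound by Sp1), which overlap in no place here except that the TATAAA matches of both strands in *Krt8* run into each other.
Krt8: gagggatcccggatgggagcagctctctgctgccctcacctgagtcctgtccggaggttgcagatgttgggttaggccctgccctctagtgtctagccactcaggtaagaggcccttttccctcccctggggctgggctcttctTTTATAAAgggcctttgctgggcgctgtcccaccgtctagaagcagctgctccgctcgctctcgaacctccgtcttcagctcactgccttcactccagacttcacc
Krt18: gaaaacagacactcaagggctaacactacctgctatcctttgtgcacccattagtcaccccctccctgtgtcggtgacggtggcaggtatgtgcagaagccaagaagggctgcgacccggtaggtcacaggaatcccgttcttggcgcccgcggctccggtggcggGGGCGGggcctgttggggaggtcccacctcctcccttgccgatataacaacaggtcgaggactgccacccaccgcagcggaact
*Krt8* had 2 matches to TATAAA and 0 to GGGCGG, and *Krt18* had 0 and 1. Of all 33469 windows of this length in the table, 12.9% held TATAAA and 30.5% GGGCGG. The motif TGANTCA, bound by AP-1, was in 6.34% of windows and in neither of these. A match is a description of letters and was not tied to the levels.

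Claudins, which seal and select ions at tight junctions, included 5 higher and 1 lower of 14 members tested, with a median log2 fold change of 0.50. *Cldn4* stood at 33.1, 39.9 and 35.3 CPM in the libraries labelled lithium, against 8.94, 9.34 and 10.5 CPM in those labelled lithium-amiloride. *Cldn7* stood at 28.9, 30.7 and 25.01 CPM against 8.06, 10.2 and 9.37 CPM, and *Cldn6* was 1.66 higher on the log2 scale. Both *Cldn4* and *Cldn7* are claudins of the collecting duct, and their labels did not overlap. *Cldn3* was 1.49 higher and *Cldn8* 0.80 higher. *Cldn19*, a claudin of the thick ascending limb, fell by 0.69 on the log2 scale, a call that was lost without 6 of the 10 libraries in turn.

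Among 10 principal cell genes tested, 5 had higher and 1 had lower values under the label lithium, and the 2 water channel genes at the ends of the list went opposite ways. *Aqp4* (ENSRNOG00000016043), a basolateral water channel, stood at 238, 299 and 300 CPM, against 10.9, 13.1 and 6.20 CPM in those labelled lithium-amiloride and 81.0 to 200 CPM in those labelled control. It was higher by 4.80 on the log2 scale (standard error 0.38, adjusted p = 2.57e-05). *Aqp2* (ENSRNOG00000054378), the apical water channel that vasopressin moves to the membrane, stood at 88.4, 80.7 and 74.8 CPM, against 144, 230 and 197 CPM and, in those labelled control, 19.5 to 33.7 CPM. It fell by 1.22 on the log2 scale (standard error 0.20, adjusted p = 0.00247). The order of the groups for *Aqp2* was labelled lithium-amiloride, labelled lithium, labelled control, with no overlap between neighbours. *Aqp3*, a basolateral water channel, stood at 46.7, 53.7 and 32.0 CPM against 66.5, 59.9 and 40.4 CPM, and the labels overlapped. The transcription factor *Gata3* stood at 36.7, 41.9 and 38.6 CPM against 16.4, 16.8 and 17.1 CPM. *Adcy6*, the adenylyl cyclase that answers vasopressin, was 0.76 higher on the log2 scale (adjusted p = 0.000212), and the transcription factor *Tfcp2l1* 0.97 higher. The other higher member, *Fxyd4*, is also in the aldosterone list and is given there. With both libraries numbered 4 put back, 3 members were higher and 1 lower.

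Genes of aldosterone-regulated sodium reabsorption included 5 higher and 1 lower of 15 tested, with a median of 0.31. *Scnn1a* (ENSRNOG00000019368), the alpha subunit of the sodium channel that amiloride blocks, stood at 162, 149 and 166 CPM, against 83.9, 83.0 and 78.0 CPM in those labelled lithium-amiloride (log2 fold change 0.97, standard error 0.11, adjusted p = 0.000312). The labels did not overlap. The beta subunit *Scnn1b* stood at 54.0, 51.8 and 50.1 CPM against 43.6, 54.6 and 48.3 CPM, and the gamma subunit *Scnn1g* at 46.7, 43.1 and 41.9 CPM against 31.0, 47.2 and 36.6 CPM. Both overlapped, with adjusted p = 0.659 and 0.546 (edgeR). *Fxyd4*, a regulator of the sodium pump, was 1.20 higher on the log2 scale, and the aldosterone-induced kinase *Sgk1* 0.53 higher. *Hsd11b2*, the enzyme that keeps cortisol and corticosterone from the aldosterone receptor, stood at 327, 342 and 310 CPM against 226, 209 and 218 CPM, and its call was lost without any 1 of the 6 libraries compared. *Klk1* (ENSRNOG00000032857), the tissue kallikrein made in the connecting tubule, stood at 235, 175 and 190 CPM against 716, 529 and 608 CPM and fell by 1.62 on the log2 scale (standard error 0.21, adjusted p = 0.000682). The higher members numbered 2 without lithium 3, lithium-amiloride 1 or lithium-amiloride 3, and 3 without lithium 2. With both libraries numbered 4 put back they numbered 2.

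Intercalated cell genes, which serve acid and base secretion, included 9 higher and 0 lower of 17 tested, with a median of 0.54. *Foxi1* (ENSRNOG00000006293), the transcription factor that these cells need, stood at 42.4, 43.5 and 44.1 CPM, against 27.8, 32.6 and 29.6 CPM in those labelled lithium-amiloride and 55.8 to 69.0 CPM in those labelled control. It was 0.54 higher on the log2 scale (adjusted p = 0.00259, edgeR). The chloride and bicarbonate exchanger *Slc4a1* stood at 180, 231 and 226 CPM against 105, 128 and 84.5 CPM. The ammonia channel *Rhcg* stood at 223, 198 and 208 CPM against 102, 116 and 105 CPM, and the proton pump subunit *Atp6v0d2* at 67.9, 72.8 and 72.9 CPM against 32.4, 42.1 and 35.4 CPM. *Dmrt2*, *Oxgr1*, *Aqp6*, *Kit* and *Slc4a9* were 1.27, 1.38, 1.08, 1.01 and 0.91 higher on the log2 scale. *Slc26a4*, the pendrin exchanger, stood at 121, 148 and 122 CPM against 121, 148 and 147 CPM, and *Car2*, a carbonic anhydrase, at 338, 348 and 369 CPM against 327, 357 and 322 CPM. The number of higher members depended on 4 single libraries. It was 4 without lithium 2, lithium 3 or lithium-amiloride 3 and 3 without lithium-amiloride 1, and it was 2 with both libraries numbered 4 put back and 0 with lithium-amiloride 4 alone put back. In lithium-amiloride 4 *Foxi1* stood at 61.6 CPM and *Rhcg* at 179 CPM, above the other 3 of its label.

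Genes of distal calcium transport and vitamin D moved both ways, with 4 higher and 2 lower of 13 tested. The epithelial calcium channels *Trpv6* (ENSRNOG00000014714) and *Trpv5* were higher in the libraries labelled lithium. *Trpv6* stood at 4.68, 6.54 and 6.60 CPM, against 0.486, 0.319 and 0.426 CPM in those labelled lithium-amiloride and 4.58 to 7.89 CPM in those labelled control, higher by 3.85 on the log2 scale (standard error 0.30, adjusted p = 2.37e-05). *Trpv5* stood at 23.1, 31.3 and 27.4 CPM against 9.13, 15.0 and 10.1 CPM. *Calb1*, the calcium-binding protein that works with these channels, stood at 152, 158 and 143 CPM against 200, 336 and 223 CPM and fell by 0.74 on the log2 scale. Its call was lost without any 1 of the 3 libraries labelled lithium or without lithium-amiloride 2. *Cyp24a1* (ENSRNOG00000013062), which breaks active vitamin D down, stood at 68.7, 55.8 and 40.8 CPM against 230, 772 and 292 CPM and fell by 2.96 on the log2 scale. *Cyp27b1*, which makes active vitamin D, stood at 3.77, 3.66 and 6.40 CPM against 1.41, 1.09 and 1.42 CPM, 1.83 higher. The magnesium channel *Trpm6* was 0.80 higher. *Vdr*, the vitamin D receptor, averaged 230 CPM against 259 CPM and was not called.

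**Figure D2:**
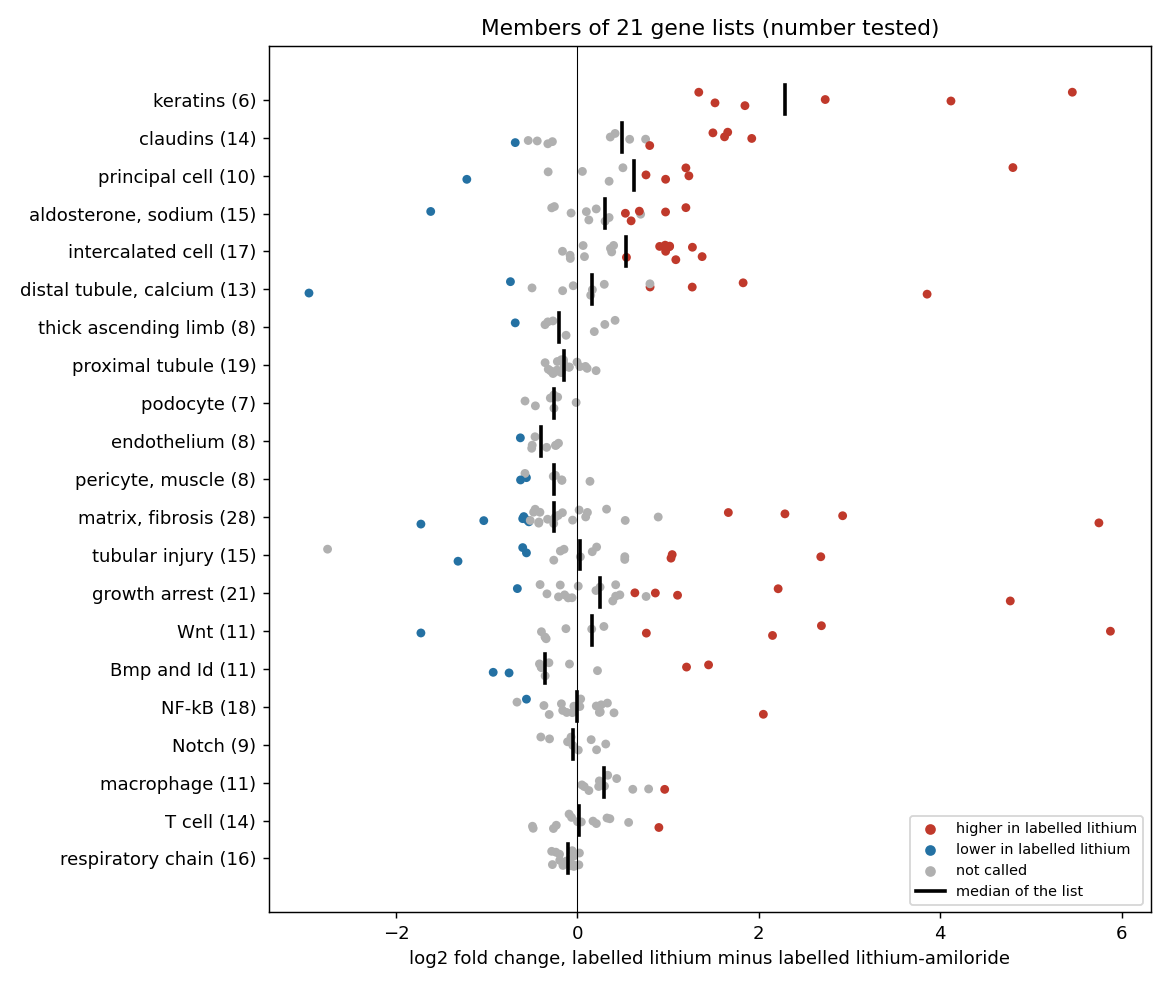
Log2 fold change of each tested member of 21 gene lists, labelled lithium minus labelled lithium-amiloride. Each point is a gene, coloured by its call, and black bars are list medians; the 6 keratins lie between 1.34 and 5.46, and the 19 proximal tubule genes between -0.36 and 0.21.

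Among genes of other segments and cell types, those of the proximal tubule differed little. For the lists in this paragraph, the shares over all tested genes with a symbol were 8.98% higher and 3.02% lower. Of 19 proximal tubule genes tested, edgeR called 0, and their median log2 fold change was -0.15. Of these, 4 had an unadjusted p under 0.05, as did 4374 of all 14532 genes tested, and DESeq2 called 0. The number at that p was not computed for genes with a symbol, to which the lists are limited. Of 7 podocyte genes edgeR called 0, with 2 at an unadjusted p under 0.05 and 1 called by DESeq2, and of 16 nuclear respiratory chain genes it called 0, with 4 at an unadjusted p under 0.05 and 0 called by DESeq2. In the thick ascending limb *Cldn19* alone was called of 8. Podocyte and endothelial genes all lay below 0 on the log2 scale, with medians of -0.26 and -0.40, and of the 8 endothelial genes edgeR called *Eng*, a receptor for transforming growth factor beta, and DESeq2 called 3. The number was 4 without lithium-amiloride 2. It stood at 166, 152 and 168 CPM against 248, 214 and 295 CPM. Of the 8 pericyte and smooth muscle genes, *Des* and *Pdgfra* fell by 0.63 and 0.56 on the log2 scale. *Pdgfrb*, a receptor of pericytes, stood at 70.5, 57.9 and 70.7 CPM against 90.2, 88.7 and 120 CPM, without overlap and with adjusted p = 0.0591 (edgeR), while DESeq2 called it with an adjusted p = 0.0143. *Acta2*, smooth muscle actin, stood at 22.9, 16.7 and 22.7 CPM against 22.1, 20.1 and 28.3 CPM. The calls of *Eng* and *Pdgfra* were lost with both libraries numbered 4 put back, that of *Eng* also without lithium 2, lithium 3, lithium-amiloride 1 or lithium-amiloride 3, and that of *Pdgfra* without lithium 2. The call of *Des* was lost without 8 of the 10 libraries in turn, with adjusted p up to 0.131 (edgeR).

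Extracellular matrix and fibrosis genes included 4 higher and 6 lower of 28 tested, with a median of -0.25. The higher members included *Ccn3*, *Mmp2* and *Tnc*. *Mmp2* (ENSRNOG00000016695), a gelatinase, stood at 83.0, 121 and 81.7 CPM, against 19.8, 17.4 and 21.8 CPM in those labelled lithium-amiloride (log2 fold change 2.29, adjusted p = 1.1e-05). *Tnc*, tenascin C, stood at 14.9, 15.2 and 16.5 CPM against 3.35, 3.55 and 7.90 CPM. None of these overlapped between labels, and each was called with every library left out in turn. The lower 6 were *Sfrp2*, *Col1a1*, *Timp1*, *Dcn*, *Eln* and *Col6a1*. *Sfrp2* (ENSRNOG00000009465), a secreted Wnt modulator made by fibroblasts, stood at 7.75, 16.9 and 9.17 CPM against 41.5, 48.5 and 23.0 CPM. *Col1a1*, fibrillar collagen, stood at 24.2, 18.1 and 25.05 CPM against 54.1, 33.8 and 50.7 CPM. *Timp1*, an inhibitor of metalloproteinases, averaged 4.54 CPM against 6.95 CPM. The lower members numbered 1 without lithium 2, 2 without lithium 3, lithium-amiloride 1 or lithium-amiloride 3, and 2 with both libraries numbered 4 put back. *Tgfb1* stood at 15.3, 13.9 and 14.9 CPM against 15.9, 18.3 and 19.0 CPM, with adjusted p = 0.259 (edgeR).

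Growth arrest genes included 5 higher and 1 lower of 21 tested. *Cdkn2b* (ENSRNOG00000006735), an inhibitor of Cdk4 and Cdk6, stood at 7.23, 8.59 and 7.59 CPM, against 0.291, 0.319 and 0.236 CPM in those labelled lithium-amiloride, 27.6-fold higher in means. *Cdkn1a*, which encodes p21, stood at 74.2, 106 and 72.3 CPM against 11.9, 23.3 and 19.6 CPM, higher by 2.21 on the log2 scale (standard error 0.23, adjusted p = 0.000145). *Ccnd1*, cyclin D1, was 1.104 higher, *Phlda3* 0.86 higher and *Mdm4* 0.63 higher, while *Cdkn1c* fell by 0.66. The call of *Mdm4* was lost with both libraries numbered 4 put back. Other members were not called, among them *Mdm2* at 48.0 CPM against 40.6 CPM and *Bax* at 29.1 CPM against 31.4 CPM. Of 14 cell cycle genes 1 was called, the mitotic kinase *Aurkb*, at 2.34, 3.47 and 2.17 CPM against 0.923, 0.638 and 0.473 CPM, and *Mki67* averaged 3.86 CPM against 3.25 CPM.

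Tubular injury genes went both ways, with 3 higher and 3 lower of 15. *Gdf15*, a stress-induced secreted factor, stood at 31.4, 48.8 and 36.9 CPM against 4.22, 8.75 and 5.34 CPM. *Anxa2* and *Cd44*, a matrix receptor, were 1.03 and 1.04 higher on the log2 scale, and *Sox9*, *Timp1* and *Vcam1* fell by 1.32, 0.60 and 0.56. The higher calls held in every alternative, while the lower members numbered 0 without lithium 2, lithium 3 or lithium-amiloride 3 and with lithium-amiloride 4 put back, 1 without lithium-amiloride 1 and 2 with the replicate number as a block. *Havcr1*, the proximal tubule injury marker Kim-1, stood at 0.26, 0.56 and 0.237 CPM against 2.62, 1.504 and 3.26 CPM and, in those labelled control, 1.82 to 21.1 CPM. The labels did not overlap, and it missed the threshold with an adjusted p = 0.0802 (edgeR), while DESeq2 called it with an adjusted p = 0.0146. *Lcn2*, a secreted marker of distal injury, stood at 2.81, 3.25 and 3.20 CPM against 2.48, 2.78 and 3.08 CPM.

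Immune genes are read against all tested genes with a symbol, of which 8.98% were higher and 3.02% lower. Beside these shares, the counts in lists this short do not set immune genes apart. Of 14 T cell genes only *Cd69*, an early activation marker, was called, and its call was lost without 7 of the 10 libraries in turn or with both libraries numbered 4 put back. *Cd3d* stood at 0.26, 0.56 and 0.593 CPM against 0.437, 0.364 and 0.473 CPM, and *Cd3e* at 1.17, 1.57 and 0.948 CPM against 1.51, 1.05 and 1.42 CPM, with overlap in both. The 14 T cell genes summed to 32.6 to 49.3 CPM in the libraries labelled lithium, 33.6 to 33.9 CPM in those labelled lithium-amiloride and 39.7 to 62.8 CPM in those labelled control. Of 11 macrophage genes *Csf1r*, the receptor of the macrophage growth factor, was called. It stood at 52.3, 65.3 and 63.3 CPM against 26.9, 37.96 and 28.6 CPM, and the list's median was 0.30. Of 18 NF-κB genes 1 was higher, the chemokine *Ccl20* at 2.29, 2.65 and 2.65 CPM against 0.826, 0.775 and 0.236 CPM, and 1 lower, the adhesion molecule *Vcam1*. The subunit *Rela* averaged 42.7 CPM against 44.2 CPM, and *Nfkb2* stood at 26.5, 28.5 and 25.6 CPM against 20.6, 23.6 and 23.5 CPM without overlap (adjusted p = 0.0834, edgeR). Of the MHC and interferon, complement and Notch lists, with 10, 8 and 9 genes tested, edgeR called 0, and 4, 1 and 1 had an unadjusted p under 0.05. DESeq2 called 1, 0 and 0. Over all 14532 genes tested, 4374 had an unadjusted p under 0.05 (edgeR), and the number among genes with a symbol was not computed. *Notch1* and its ligand *Jag1* averaged 47.04 and 16.04 CPM against 49.7 and 14.5 CPM.

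Of 11 Wnt genes tested, 4 were higher and 1, *Sfrp2*, was lower. *Dkk3*, a secreted Dickkopf family protein, stood at 30.4, 47.2 and 40.1 CPM against 5.197, 4.602 and 8.56 CPM. The ligand *Wnt7b* stood at 1.26, 2.05 and 1.304 CPM against 0.291, 0.228 and 0.520 CPM, and the ligand *Wnt7a* had 23 counts against 0, at least 6.49-fold higher with the zero set to 3 counts over the group. The target gene *Axin2* was 0.76 higher on the log2 scale. *Gsk3b*, the kinase that lithium inhibits, stood at 23.2, 25.7 and 32.8 CPM against 21.9, 25.3 and 20.0 CPM, with overlap. Of 11 Bmp and Id genes the Bmp inhibitor *Grem1* stood at 114, 126 and 126 CPM against 26.7, 74.0 and 34.4 CPM and *Bmp2* was 1.20 higher on the log2 scale. *Id1* and *Id3*, targets of Bmp signalling, fell by 0.93 and 0.75. The higher members of this list numbered 0 without lithium 2, lithium 3 or lithium-amiloride 1 and with lithium-amiloride 4 put back, and 1 without lithium-amiloride 3. The call of *Id1* was lost without lithium 2, lithium 3 or lithium-amiloride 3 and with the replicate number as a block.

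Immediate-early genes included *Atf3* and *Klf6*, 1.18 and 0.57 higher, of 12 tested, and both calls were lost without several single libraries. *Fos* stood at 1.47, 4.03 and 4.07 CPM against 2.14, 0.501 and 1.04 CPM, with overlap. In the sterol and endoplasmic reticulum stress lists *Cyp51* and *Chac1* were the single calls, 0.74 and 1.94 higher on the log2 scale, and that of *Chac1* was lost with both libraries numbered 4 put back. In all, edgeR called 0 members in 14 of the 38 lists. These hold 101 tested genes, of which 24 had an unadjusted p under 0.05 and DESeq2 called 2. Over all 14532 genes tested, 4374 had an unadjusted p under 0.05 (edgeR). That number was not computed for genes with a symbol, to which the lists are limited. The 14 lists were also picked for having 0 calls, which itself favours few small p-values, so the 2 shares cannot be compared. The 14 lists include the clock, hypoxia and glycolysis, osmolyte, renin-angiotensin, neutrophil, red blood cell, adrenal and skeletal muscle lists. None of the B and plasma cell genes was tested.

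Markers of tissues next to cortex were also read. *Adipoq*, the hormone of fat cells, stood at 28.6, 33.6 and 27.2 CPM in the libraries labelled lithium, against 5.68, 5.56 and 5.58 CPM in those labelled lithium-amiloride and 11.7 to 20.0 CPM in those labelled control. *Fabp4*, the other fat marker tested, averaged 0.96 CPM against 0.962 CPM. *Upk1a*, a plaque protein of urothelium and the 1 tested of 4 urothelial markers, stood at 1.65, 2.24 and 2.13 CPM against 0.194, 0.228 and 0.0473 CPM. It moved the same way as the keratins and claudins, and its part in their difference was not tested.

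The libraries labelled control gave the position of a group outside the comparison. For the 838 higher genes, their mean lay between the other 2 means in 82.2%, above both in 14.3% and below both in 3.46%. For the 292 lower genes it lay between in 73.6% and below both in 24%. These genes were called for a difference between the other 2 labels, and that choice itself favours a control mean between them. The shares over all genes tested were not computed, so these shares cannot show that labelled control is an intermediate state. *Krt18* at 73.3 to 91.4 CPM and *Ccn3* lay between, *Trpv6* reached the level of those labelled lithium, and *Aqp2*, *Klk1* and *Calb1* lay below both.

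The 14- and 28-day libraries, named by their own labels, allowed comparisons of the same treatments at earlier times. In a fit over 44 libraries of the 3 times with 15026 genes tested, the 6-month difference was compared with lithium-amiloride minus control, its counterpart by the tables, and with lithium minus lithium-amiloride, its counterpart by the labels. The 6-month libraries are shared with none of these, while the 2 counterparts of one time share their lithium-amiloride libraries. Across genes, which are not independent replicates, the log2 fold changes had Pearson's r = 0.51 with lithium-amiloride minus control at 14 days and 0.61 at 28 days. With lithium minus lithium-amiloride it was -0.01 at 14 days and -0.22 at 28 days. The test of the difference between differences called 51 genes (0.339%) against lithium-amiloride minus control at 14 days and 18 (0.12%) at 28 days. The 51 became 33 without lithium 2, 24 without lithium 3 and 149 in a fit over all 47 libraries, and the 18 became 11 without lithium 1 or lithium-amiloride 2 and 10 without lithium 3. Against lithium minus lithium-amiloride it called 1058 (7.04%) at 14 days and 1606 (10.7%) at 28 days, which became 1880 and 2849 over all 47 libraries. The third difference, lithium minus control, which neither naming makes the counterpart, had r = 0.45 at 14 days and 0.55 at 28 days, so a positive r is not particular to lithium-amiloride minus control. Each group of the earlier times had 5 or 6 libraries in this fit, and the durations of treatment differ between the times.

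**Figure D3:**
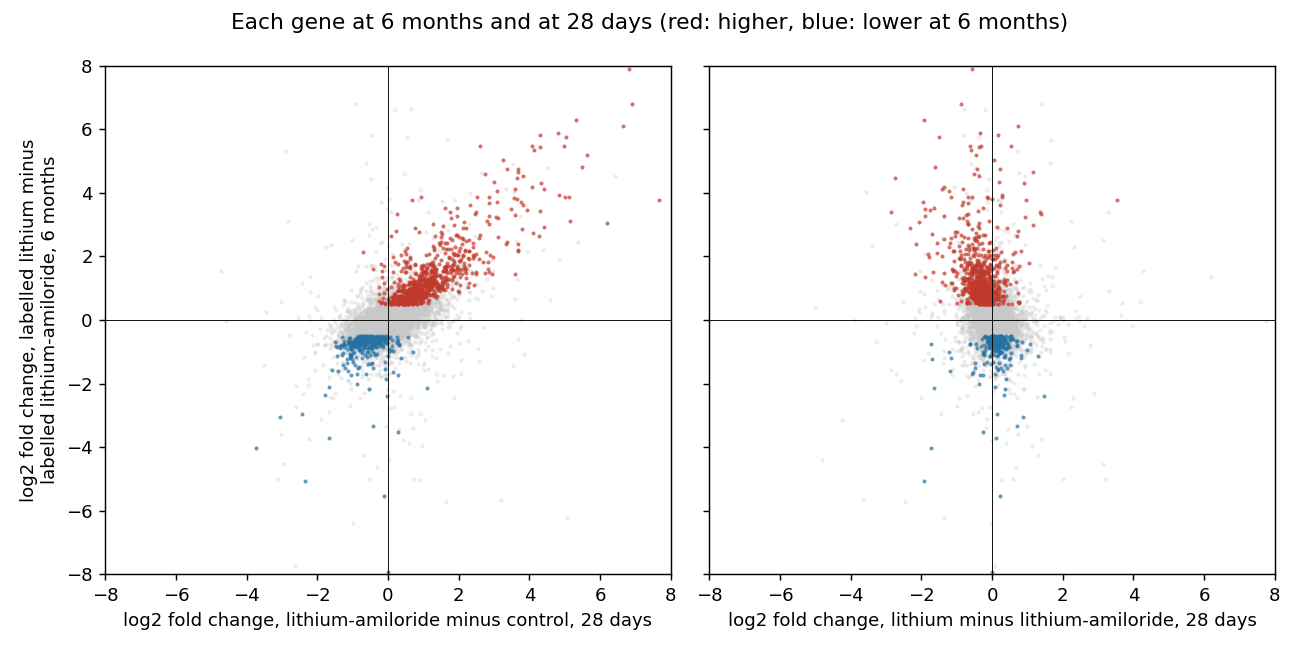
Log2 fold change of each gene at 6 months (labelled lithium minus labelled lithium-amiloride) against 2 differences at 28 days. Each point is a gene, red and blue where higher or lower at 6 months, and 1 gene lies outside the axes; Pearson's r is 0.61 in the left panel and -0.22 in the right.

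Called genes were also followed singly. Of the 832 higher genes tested in that fit, 428 (51.4%) were also higher in lithium-amiloride than in control at 14 days and 635 (76.3%) at 28 days, where 4.94% and 11.0% of all genes were. These were 57.7% and 38.5% of the genes higher at those times. Of the 290 lower genes, 74 (25.5%) and 168 (57.9%) were lower in lithium-amiloride than in control, against 3.25% and 6.97% of all genes and making up 15.1% and 16.0% of those lower. In lithium minus control, 46.8% and 55.9% of the 832 were higher, where 8.25% and 6.77% of all genes were, and 31.0% and 43.1% of the 290 were lower, where 3.98% and 4.13% were. In lithium minus lithium-amiloride, 30 (3.61%) of the 832 were higher at 14 days and 4 (0.481%) at 28 days, where 1.5% and 0.22% of all genes were, and 64 (7.69%) and 82 (9.86%) were lower, where 0.872% and 0.745% of all genes were. The genes that were higher at 6 months made up 13.3% and 12.1% of those higher in lithium than in lithium-amiloride.

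The gene lists can be set side by side in the same way. They hold 6 keratins, 17 intercalated, 15 aldosterone and 28 matrix genes. Over all 15026 genes, the 6-month difference called 741 upward and 276 downward. In lithium-amiloride against control the share called upward was 4.94% on day 14 and 11.0% on day 28. The share called downward was 3.25% and 6.97%. Shares of the other differences are given above. No share was computed for genes with a symbol in this fit, so list counts alone do not show a change between times. In this fit the 6-month difference called 6 keratins higher, 5 intercalated genes higher, 3 aldosterone genes higher and 1 lower, and 3 matrix genes higher and 2 lower. The 6 keratins were all higher in lithium-amiloride than in control at 14 and at 28 days (medians 1.99 and 3.06), and in lithium minus lithium-amiloride 0 were higher at either time, with 1 lower at 28 days. In lithium minus control 6 were higher at both times. The intercalated list had 0 higher at 14 days and 7 higher and 1 lower at 28 days in lithium-amiloride against control, and 1 and 4 higher in lithium against lithium-amiloride. For the aldosterone list these were 2 and 6 higher with 1 lower at each time, and 0 higher with 7 and 6 lower. The matrix list had 4 higher and 0 lower at 14 days and 7 higher and 10 lower at 28 days in lithium-amiloride against control. In lithium against lithium-amiloride it had 5 higher and 2 lower at 14 days, and 1 higher and 2 lower at 28 days. In lithium against control it had 11 higher and 4 lower at 14 days, and 8 higher and 8 lower at 28 days. In that difference the intercalated list had 2 higher and 2 lower, then 9 and 0. The aldosterone list had 0 and 6, then 1 and 5.

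Single genes were named for a departure from either counterpart, and those in this paragraph for a departure from lithium minus lithium-amiloride. Levels in this paragraph are scaled over the 44 libraries and differ slightly from those above. *Krt18* was 4.11 higher on the log2 scale at 6 months and 0.37 lower in lithium than in lithium-amiloride at 14 days, a difference of 4.49 (standard error 0.33, adjusted p = 1.24e-12, edgeR). It had medians of 152, 179 and 7.09 CPM in the lithium, lithium-amiloride and control groups of 14 days. *Ccn3* and *Aqp4* differed from the same counterpart by 7.01 and 6.79, and *Arl4a* and *Rab15*, 2 small GTPases, from that of 28 days by 2.59 and 3.43. *Epha2*, an ephrin receptor, *Tgif1* and the linker histone *H1f2* differed from 14 days by -1.27, -1.32 and -1.45. Their log2 fold changes were -0.48, -0.46 and -0.40 at 6 months, short of the 0.5 needed for a call. In lithium minus lithium-amiloride at 14 days they were 0.79, 0.85 and 1.05. *Id3* and the proteoglycan *Gpc3* differed from 28 days by -1.82 and -1.54.

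Against lithium-amiloride minus control, *Cdkn1a* was 2.21 higher at 6 months and 4.12 higher at 14 days, a difference of -1.91 (standard error 0.27, adjusted p = 0.000113, edgeR), and one of -1.48 against 28 days. Scaled over the 44 libraries, as are all levels in this paragraph, its level was 76.9 to 114 CPM in the libraries labelled lithium. In those labelled lithium-amiloride it was 12.6 to 24.8 CPM. At 14 days it was 86.8 to 109 CPM in lithium-amiloride and 4.62 to 6.98 CPM in control. *Tcp11*, a testis protein, differed by -3.06 from 14 days and -2.15 from 28 days, with 2.103 to 3.11 CPM against 0.973 to 1.71 CPM at 6 months and 8.76 to 12.2 CPM against 0.426 to 1.16 CPM at 14 days. *Zfp36l2* differed by -4.01 from 14 days. *Tdrd9*, a germline helicase, differed by 4.86 and stood at 3.11 to 4.15 CPM against 0.103 to 0.339 CPM at 6 months. *Epb41l4b* and *Osgin2* differed by 1.49 and 1.35. Against 28 days *Smox*, which oxidizes spermine, *Gpsm1* and *Pcp4*, a calmodulin-binding peptide, differed by 1.31, 0.999 and 2.55. *Tcp11* and *Gpsm1* were not called in the 6-month comparison itself, with log2 fold changes of 0.75 and 0.49 in this fit. *RT1-DMb*, an MHC class II chain, differed by -8.87 from 28 days, but 1 library decided it, with 5.43 CPM in 1 library labelled lithium-amiloride and at most 0.0485 CPM in the other 2 of that label.

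**Figure D4:**
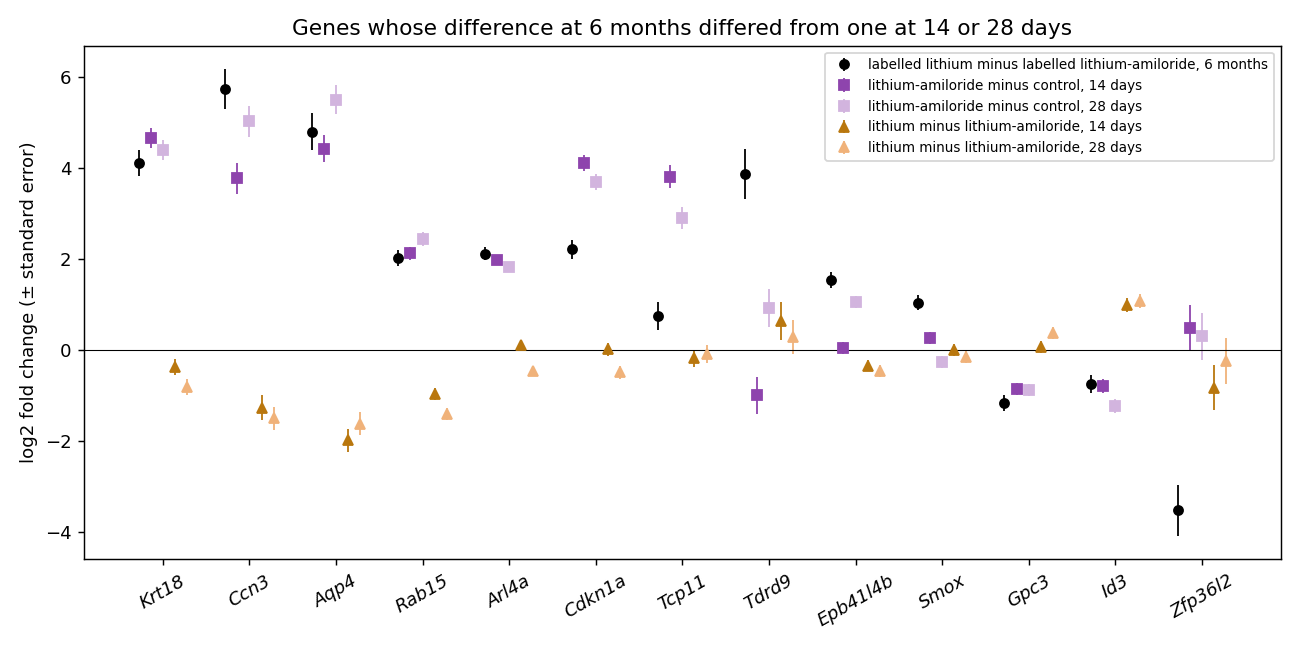
Log2 fold changes with standard errors of 13 genes at 6 months (black) and in 2 comparisons each at 14 and 28 days, from the fit over 44 libraries. *Krt18*, *Ccn3* and *Aqp4* are above 3.7 in lithium-amiloride minus control and below 0 in lithium minus lithium-amiloride, and *Cdkn1a* and *Tcp11* are lower at 6 months than in lithium-amiloride minus control at either earlier time.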

How the data were processed

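RNA from rat kidney cortex was sequenced as stranded TruSeq mRNA libraries. Per the submitters' processing notes, reads were trimmed (Cutadapt 0.2.6), aligned to Rnor_6.0 (HISAT2 2.1.0) and counted per Ensembl gene (featureCounts 2.0.0). The methods of the study name other versions of Cutadapt and featureCounts. Strand and multi-mapping settings are not given in the sources used here, so values of overlapping or near-identical genes are uncertain. The count tables deposited by the authors hold raw counts for 32545 genes. In their 9 test tables, which list genes with an adjusted p under 0.05, the signal column, deposited by the authors as a mean of counts over size factors, was used to find the libraries left out, and IDs and symbols to name 9237 genes. Fold changes and p-values there were not used. There were 0 columns of unmapped samples.

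Counts were tested with edgeR 4.0.16 in R 4.3.3 (filterByExpr, TMM, quasi-likelihood F test), with 3 groups and 10 libraries in 1 fit. Called genes had a Benjamini-Hochberg adjusted p under 0.05 and changed by 0.5 or more on the log2 scale. CPM values of single libraries are scaled over all 12 libraries of 6 months. Differences between times were contrasts of contrasts in a fit over 44 libraries. The test was checked on simulated counts. These were drawn with the spread estimated in the same fit, so the check cannot show how far calls rest on single libraries. Counting intervals are exact 95% binomial intervals, and a count of 0 was set to 3 counts.

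The genes named are the 10 highest and 10 lowest called genes of at least 1 CPM with no overlap, up to 4 called genes of each of 38 lists by p, fixed genes of the study's questions, and 3 genes per direction for each difference between times. Other list members were named after their values were seen, and some members are not reported here. The members and lists were chosen with earlier results of these data known. Same-numbered libraries of the 3 groups did not deviate together (correlations -0.22 to 0.0413). Alternatives tried were libraries put back or left out, DESeq2 1.42.0, other size factors, no count filter, a replicate block, no fold threshold, and mitochondrial genes left out.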

Additional observations from a re-analysis of the deposited data

Results flagged for a closer look

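Among the 4 libraries labelled control, 1 library stood apart from the other 3 by Dixon's criterion for 8 of the 110 named genes. Chance flags about 1 group in 20. The values that stood apart were 175.5 CPM for *Rhcg* (others 127.0 to 130.3), 39.5 CPM for *Rela* (46.6 to 47.4), 3.19 CPM for *Spns3* (1.25 to 1.51), 0.0889 CPM for *Defb9* (0 in the others), 0.489 CPM for *Clec2dl1* (0.337 to 0.361), 4.39 CPM for *Zfp36l2* (0.561 to 0.992), 58.1 CPM for *Krt80* (45.8 to 47.8) and 8.62 CPM for *Des* (13.3 to 13.4). Among the 4 libraries labelled lithium-amiloride, the 50 most abundant genes took 40.6% of the counts in lithium-amiloride 1 and 35.8 to 36.5% in the others.

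The 6-month difference differed, by its own test, from lithium-amiloride minus control at 14 days for *Tdrd9* (4.86 on the log2 scale), *Epb41l4b* (1.49), *Osgin2* (1.35), *Tcp11* (-3.06), *Cdkn1a* (-1.91) and *Zfp36l2* (-4.01). From the same difference at 28 days it differed for *Smox* (1.31), *Gpsm1* (0.999), *Pcp4* (2.55), *Cdkn1a* (-1.48), *RT1-DMb* (-8.87, resting on 1 library) and *Tcp11* (-2.15). From lithium minus lithium-amiloride at 14 days it differed for *Aqp4* (6.79), *Ccn3* (7.01), *Krt18* (4.49), *Epha2* (-1.27), *Tgif1* (-1.32) and *H1f2* (-1.45), and at 28 days for *Arl4a* (2.59), *Rab15* (3.43), *Krt18* (4.93), *Id3* (-1.82), *Gpc3* (-1.54) and *Epha2* (-1.03).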

How the results depend on the processing

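No alternative turned the direction of a named gene that was called. With lithium-amiloride 4 put back, higher genes numbered 506, lower genes 119 and called list members 46 (of 80). With both libraries numbered 4 put back, 773 calls in the same direction were shared, 68.4% of the 1130 calls here and 83.8% of the 922 found then. Without the fold threshold 759 genes were lower. With each library left out, higher genes numbered 626 to 910, lower genes 118 to 400, called list members 54 to 92, and named genes with their call 68 to 87 (of 87). Of the differences between times, those against lithium-amiloride minus control numbered 24 to 42 at 14 days and 10 to 25 at 28 days with each of the 6 libraries left out, and those against lithium minus lithium-amiloride 740 to 1073 and 1117 to 1754. In a fit over all 47 libraries the counts were 149 against lithium-amiloride minus control at 14 days, and 1880 and 2849 against lithium minus lithium-amiloride at 14 and 28 days. The causes were not tested.

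Libraries with the same replicate number showed no shared deviation, which with so few libraries cannot exclude pairs. With the replicate block 644 genes were higher and 163 lower, and 98.5% of these were also called without it. At these depths genes under 1 CPM rest on few counts, and their differences have wide intervals.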
